A study of Mus musculus with 35 samples.

Results

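The Skint genes encode a family of membrane proteins with immunoglobulin-type domains that are related to the butyrophilins, and 10 of them (Skint1 to Skint7 and Skint9 to Skint11) were followed across 35 RNA-seq libraries of sorted mouse epithelial cells. The members were taken by gene name from tables in which 47436 gene names were common to all libraries. The family was chosen by the measured TPM values of Skint7 in slow-cycling and fast-cycling back skin cells, so that difference is described here without a test. Other comparisons of Skint7 that use these libraries have p-values that are not independent of the choice.

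Every mouse was C57BL/6J and 2 months old, with the genotype K5-tTA/pTRE H2B-GFP. In such mice the keratin 5 promoter drives a GFP-tagged histone in basal epithelial cells until doxycycline stops it, after which each division dilutes the GFP. Label-retaining cells (LRC) are named slow-cycling and non-label-retaining cells (nLRC) fast-cycling by the submitters. Both classes were sorted from basal cells of the back, the tail, the palate and the tongue, and from spinous cells of the back. Granular cells of the back and follicle bulge cells of back and tail were not divided by label. Each skin group had 3 libraries and each palate or tongue group had 2. All animals ate doxycycline chow, those for skin over 2 weeks and those for oral tissue over 10 days, so no group lacked the transgenes or the drug. The label can report divisions only in cells whose keratin 5 promoter was active before the chow. Whether libraries within a group represent different animals is stated nowhere in the labels. The p-values below therefore describe the spread among these libraries, part of which may be technical.

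Skint1, the founding member, is required for the thymic selection of the γδ T cells that later settle in mouse epidermis as dendritic epidermal T cells, which survey keratinocytes for stress. Skint genes are transcribed mainly in skin and thymus epithelium, and Skint3 and Skint9 have been studied in keratinocytes at wound edges as signals to these T cells. The separate functions of most other members are not well defined, so they are described below by position, sequence and level.

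The family lies in one cluster on mouse chromosome 4 (GRCm38, chr4:111919392-114245028, 2.33 Mb), with 11 Skint genes and no protein-coding gene of another family between them in the GENCODE annotation. From the centromere side the order is Skint8, Skint7, Skint1, Skint4, Skint3, Skint9, Skint2, Skint10, Skint6, Skint5 and Skint11. Skint9, Skint10, Skint6 and Skint5 stand on the minus strand and the others on the plus strand. Skint8 is not a member here, but the tables list it, and it matters because it is the closest copy of Skint7. Gene length varied widely, from 15301 bases for Skint7 to 482358 bases for Skint6 and 521613 bases for Skint5. An exon of Skint6 overlaps the antisense gene Gm12823, and reads of the 2 strands there cannot be told apart, because the strand setting of the counting was not given in the sources used here.

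Reads can be exchanged between copies that are identical over a read, and 2 pairs of Skint genes shared the most transcript sequence. Introns, whose reads are also in the counts tested below, were not compared. Over all annotated transcripts, 6.83% of the 50-base stretches of Skint7 also occurred in Skint8, and 3.97% of those of Skint5 occurred in Skint6. Skint2 and Skint3 shared 19 such stretches, and Skint1, Skint4, Skint9, Skint10 and Skint11 shared none with another Skint gene. Of the Skint11 stretches, 4.51% also occurred in 1 gene outside the family. The coding sequences of Skint7 and Skint8 were 90.5% identical, with an identical run of 237 bases, and those of Skint5 and Skint6 were 88.4% identical, with a run of 98 bases. The stretches printed next begin inside these runs and show where a read starts to tell the copies apart, with the differing bases in capitals (GENCODE M21 transcripts, GRCm38, 5′ to 3′).
Skint7 coding bases 271 to 390: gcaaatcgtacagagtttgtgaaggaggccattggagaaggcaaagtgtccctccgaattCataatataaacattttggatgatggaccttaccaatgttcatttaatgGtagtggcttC
Skint8 coding bases 271 to 390: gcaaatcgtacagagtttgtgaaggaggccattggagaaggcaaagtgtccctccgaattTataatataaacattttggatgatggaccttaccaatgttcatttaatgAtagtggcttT
Skint5 coding bases 615 to 734: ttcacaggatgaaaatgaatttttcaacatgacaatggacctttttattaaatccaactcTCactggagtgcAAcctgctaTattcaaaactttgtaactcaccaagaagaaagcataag
Skint6 coding bases 573 to 692: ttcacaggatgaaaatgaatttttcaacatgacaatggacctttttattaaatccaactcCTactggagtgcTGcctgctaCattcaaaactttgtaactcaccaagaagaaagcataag
Within these 120 bases Skint7 and Skint8 differed at 3 positions and Skint5 and Skint6 at 5, all of them after the first 60 bases. The Skint7 stretch lies at chr4:111980297-111980416 and the Skint8 stretch at chr4:111928629-111928748. The Skint5 stretch lies at chr4:113940651-113940770 and the Skint6 stretch at chr4:113236253-113236372. Skint7 and Skint8 had unlike levels in the libraries (for spinous LRC libraries 79.1 ± 2.42 and 8.78 ± 1.81 TPM, SD, n = 3), and so did Skint5 and Skint6 (21.2 ± 5.51 and 57.5 ± 7.25 TPM). How the authors assigned reads that match several copies is not given in the sources used here.

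Promoters, the 250 bases before each gene start (RefSeq, GRCm38.p6), were put into sets by shared runs of at least 12 bases. Runs held by the most Skint genes came first, and a promoter already in a set was not placed again. The sets are printed because members with a common run can be set beside their levels. A run of 14 bases, in capitals, stood in 5 member promoters, and these were all 5 of the 32851 mouse promoters searched on both strands that held it.
Skint1 (chr4:112006019-112006088, plus strand): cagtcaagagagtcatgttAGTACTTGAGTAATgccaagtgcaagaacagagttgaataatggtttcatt
Skint4 second start (chr4:112081395-112081464, plus strand): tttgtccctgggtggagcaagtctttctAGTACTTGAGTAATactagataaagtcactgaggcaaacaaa
Skint3 (chr4:112232114-112232183, plus strand): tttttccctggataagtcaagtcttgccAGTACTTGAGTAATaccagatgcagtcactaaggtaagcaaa
Skint6 (chr4:113287154-113287223, minus strand): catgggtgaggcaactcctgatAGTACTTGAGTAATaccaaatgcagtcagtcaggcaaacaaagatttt
Skint5 (chr4:113999684-113999753, minus strand): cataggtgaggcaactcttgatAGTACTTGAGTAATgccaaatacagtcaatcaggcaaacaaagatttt
A second run of 13 bases was held by Skint9, Skint10 and Skint11, and by no other of the 32851 promoters.
Skint9 (chr4:112434143-112434212, minus strand): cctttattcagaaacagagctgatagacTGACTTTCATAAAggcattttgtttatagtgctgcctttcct
Skint10 (chr4:112774933-112775002, minus strand): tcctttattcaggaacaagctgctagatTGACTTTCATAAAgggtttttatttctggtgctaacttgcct
Skint11 (chr4:114163294-114163363, plus strand): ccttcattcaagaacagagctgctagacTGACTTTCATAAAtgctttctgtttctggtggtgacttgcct
Skint7 shared its promoter run, of 51 bases, with Skint8 alone.
Skint8 (chr4:111919316-111919385, plus strand): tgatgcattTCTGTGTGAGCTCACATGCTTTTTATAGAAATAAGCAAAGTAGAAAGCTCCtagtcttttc
Skint7 (chr4:111972857-111972926, plus strand): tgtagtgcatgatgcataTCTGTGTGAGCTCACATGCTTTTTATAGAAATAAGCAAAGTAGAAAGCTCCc
Skint2 was in none of these sets by that rule, but its promoter shared a run of 12 bases with those of Skint5 and Skint6. Over the aligned bases it was 74.6% and 76.1% identical to them. Skint4 has a second annotated start whose promoter is the one shown. The TATA box letters TATAAA stood in the promoters of 6 members, on either strand, and in 12.4% of all promoters. A match of letters is a description of the sequence only. Levels did not follow the sets in a simple way: in granular libraries Skint9 stood at 282 ± 20.3 TPM, Skint10 at 27.0 ± 5.05 and Skint11 at 21.8 ± 4.47, although all 3 hold the second run.

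**Figure D1:**
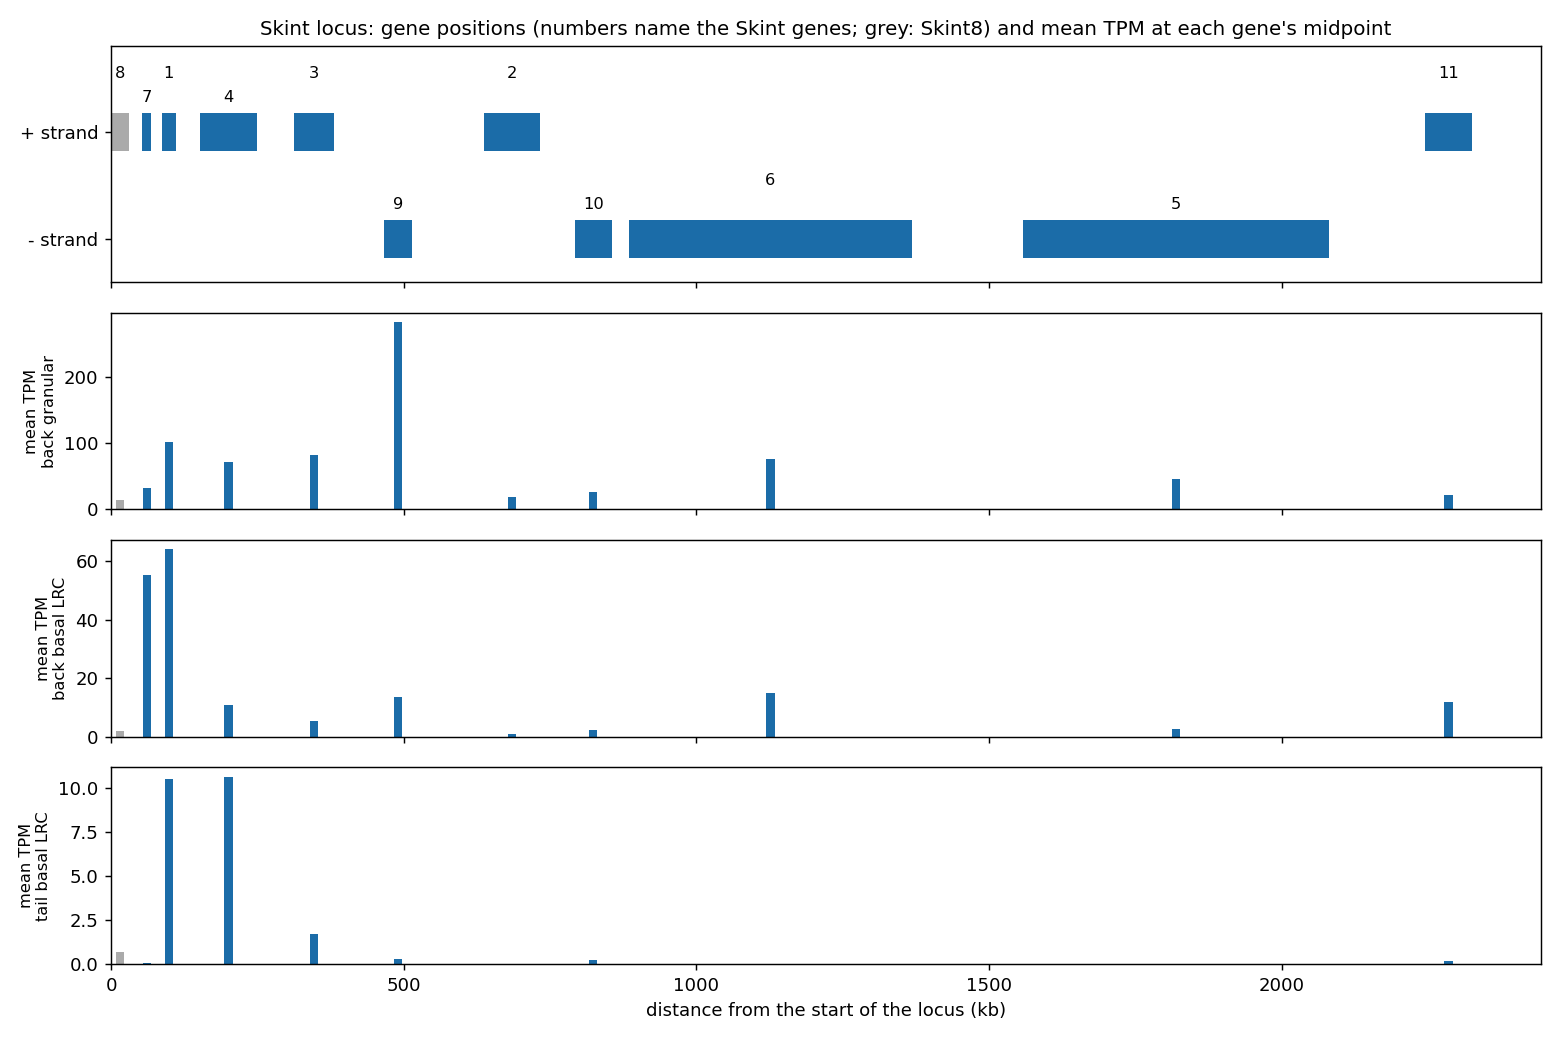
Top, positions of the 11 Skint genes along the cluster by strand (x axis, distance from its start in kb; bars, gene bodies; grey, Skint8, not a member). Below, mean TPM of each gene at its midpoint in granular, back basal LRC and tail basal LRC libraries (n = 3 each, y axes differ); Skint9 is highest in the granular layer, Skint1 and Skint7 in back basal LRC, and Skint4 and Skint1 in tail.

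Gene reads per library ranged over 9785944 to 20560481 (back), 8421582 to 14093720 (tail), 11680595 to 15641556 (palate) and 11847897 to 13034075 (tongue). Levels are given as TPM, the authors' exon reads per length, scaled to the same total in every library, which can be compared between genes, and tests use the authors' counts of total gene reads. These counts held intron reads too: the estimated exon share of reads over back libraries had a median of 54% for Skint7 and 36.9% for Skint1, but 7.76% for Skint5, 7.27% for Skint6 and 4.77% for Skint11. Back bulge library 2 stood apart, with 44.9% of its 9785944 reads on ribosomal RNA-like features against 8.17 to 18% in the other back libraries. The back skin tables list 53715 genes and the others 49585, and 28.3 to 46.8% of reads were on those features in tail and oral libraries, so tissue and processing cannot be told apart between back skin and the rest. Of the defining T cell genes, Cd3e, Trdc, Tcrg-C1 and Tcrg-V5 had at most 7.81, 4.88, 2.89 and 8.71 TPM in any library. In bulk libraries, fewer cells of a type and less RNA per cell cannot be told apart.

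The family as a whole was highest in the granular layer of back skin and was close to absent from basal cells of the oral epithelium. No cells above the basal layer were sorted from tail, palate or tongue, so levels there are not known. The summed TPM of the 10 members was 758 ± 63.9 in granular libraries (SD, n = 3), followed by spinous LRC with 500 ± 17.3, basal LRC with 182 ± 16.5, spinous nLRC with 152 ± 24.7, basal nLRC with 102 ± 8.34 and bulge with 61.7 ± 37.9. In tail skin it was 23.7 ± 6.24 in basal LRC, 4.34 ± 1.69 in basal nLRC and 0.947 ± 0.415 in bulge libraries. Palate LRC and nLRC (n = 2 each) had 0.14 ± 0.0707 and 0.395 ± 0.431, and the highest of the 4 tongue libraries had 0.04. In this order granular and spinous LRC stood clear of their neighbours, while basal LRC overlapped spinous nLRC, and back bulge overlapped both basal nLRC of back skin and tail basal LRC. Tail LRC, tail nLRC and tail bulge were separate from each other in every library.

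**Figure D2:**
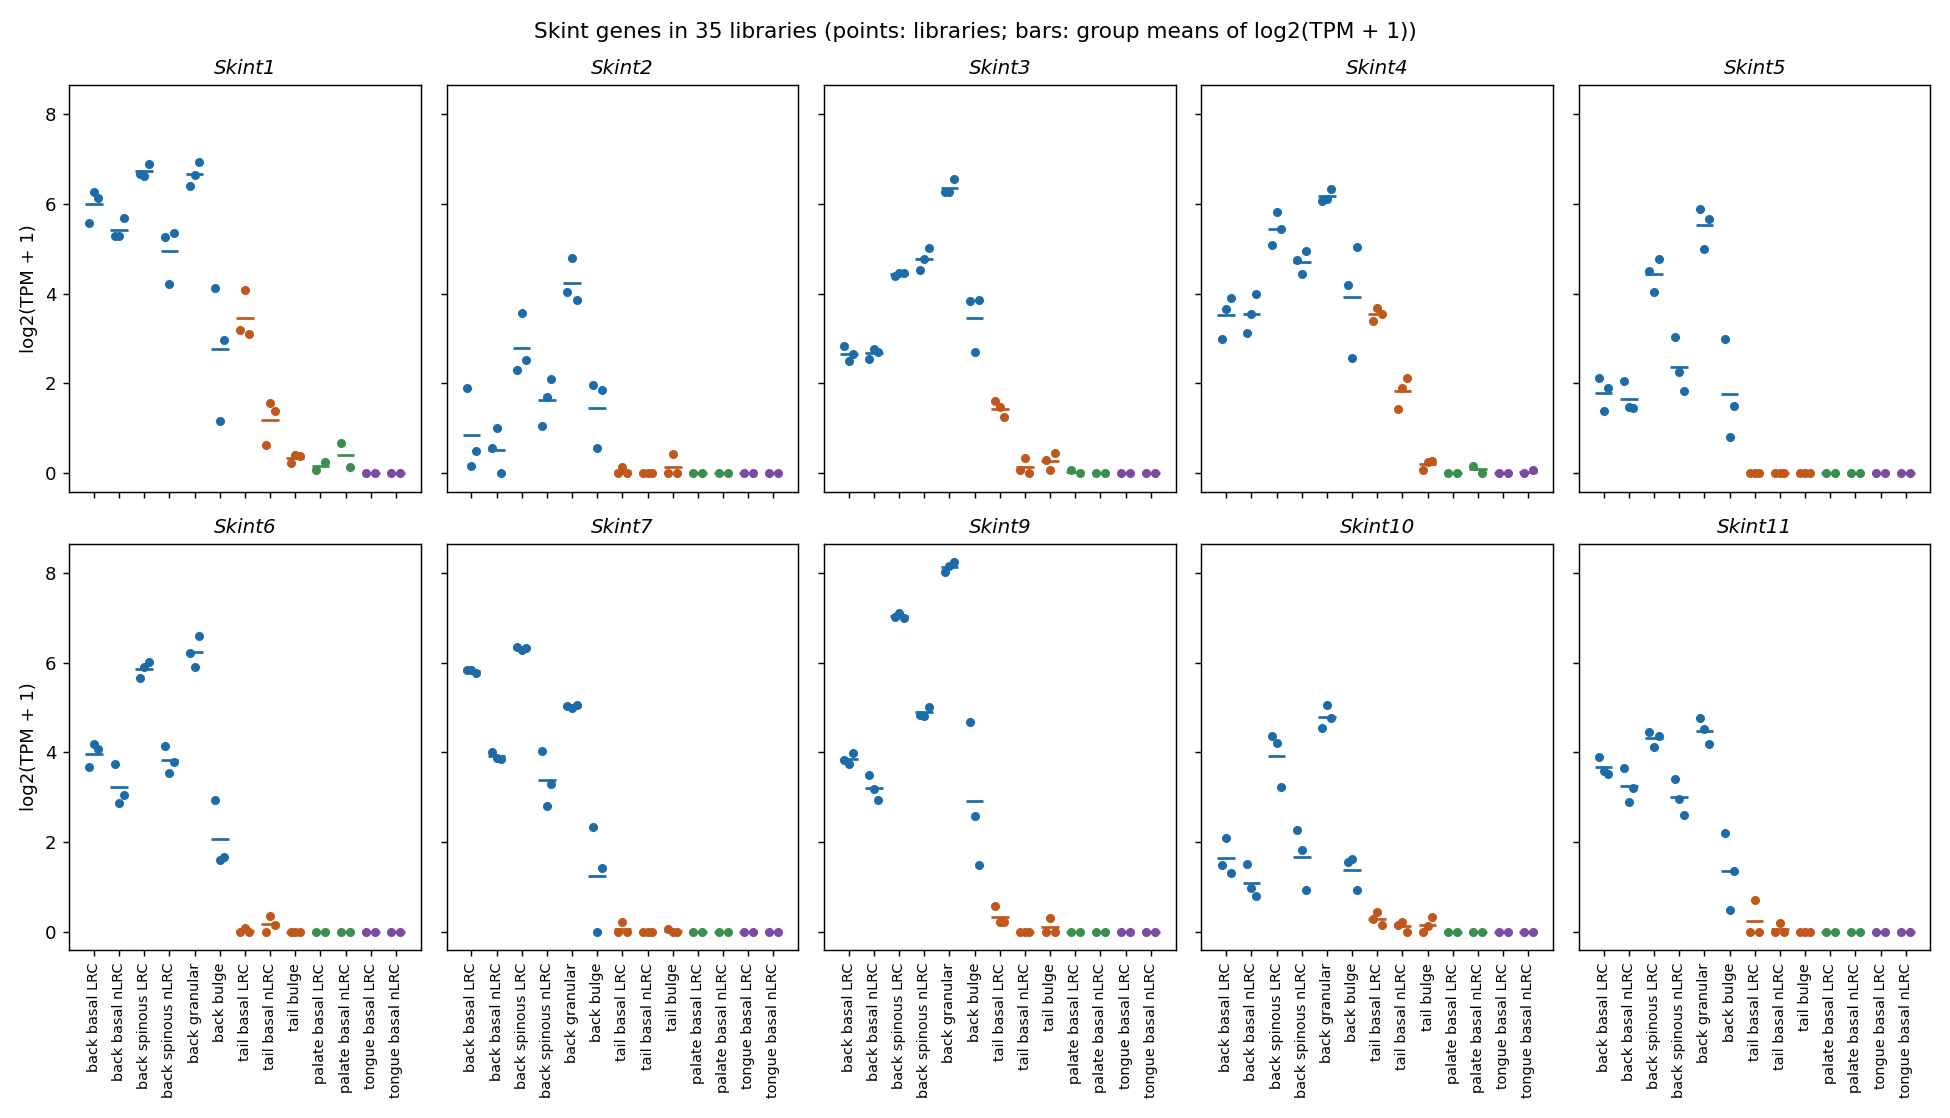
Each panel is one member, the x axis the 13 groups and the y axis log2(TPM + 1); points are libraries (3 per group, 2 in palate and tongue), bars the group means, colours the tissue. Skint7 reaches its highest values in spinous and basal LRC of back skin, Skint9 in the granular layer, and only Skint1, Skint3 and Skint4 have a group mean of at least 1 TPM in tail skin.

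Different members led in different groups. Skint1 held 35.2% of the summed level in back basal LRC and 41.2% in basal nLRC, with Skint7 second at 30.5% and 13.7%. In spinous LRC and granular libraries Skint9 led, with 26.3% and 37.2% of the sum. Skint4 led in back bulge with 29.2%. In tail basal LRC Skint4 and Skint1 made up 44.9% and 44.4%, and in tail basal nLRC 60% and 31.4%. In the granular layer the lowest members were Skint2, at 18.6 ± 7.21 TPM, and Skint11, at 21.8 ± 4.47, against 282 ± 20.3 for Skint9.

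Between the basal layer, where keratinocytes divide, and the spinous layer above it, 7 of the 10 members rose in back skin and the other 3 did not pass the test. The 7 were Skint2, Skint3, Skint4, Skint5, Skint6, Skint9 and Skint10, while 4.9% of the 16574 genes tested rose and 4.18% fell (edgeR quasi-likelihood test, Benjamini-Hochberg adjusted p under 0.05, mean of LRC and nLRC in each layer). The median log2 fold change of the members was 1.79 against 0.01 over all genes tested. Skint9 had 13.3, 12.5 and 14.8 TPM in basal LRC and 10.3, 8.17 and 6.73 in basal nLRC libraries, then 129, 138 and 127 in spinous LRC and 27.5, 27.3 and 31.5 in spinous nLRC. Every spinous library was above every basal one, with a log2 fold change of 2.85 ± 0.34 (SE, adjusted p = 7.3e-05). Skint3 had 6.14, 4.67 and 5.27 TPM in basal LRC and 4.87, 5.83 and 5.51 in basal nLRC libraries, against 20.2, 20.9 and 21.1 in spinous LRC and 22.1, 26.4 and 31.6 in spinous nLRC. Its groups were separate, and its rise of 2.41 ± 0.15 (adjusted p = 5.0e-07) had the smallest p of the members. Skint4 rose by 1.72 ± 0.23 (adjusted p = 2.2e-04) and Skint2 by 2.47 ± 0.45 (adjusted p = 0.00194), both without overlap in counts scaled to library size. Skint5 (2.17 ± 0.45), Skint10 (1.86 ± 0.40) and Skint6 (1.24 ± 0.36) rose with overlap between libraries, and Skint6 lost its call when any one of 10 libraries was left out (adjusted p = 0.0572 to 0.119). Skint1 (−0.02 ± 0.24) and Skint11 (−0.43 ± 0.40) did not pass, and neither did Skint7, whose fitted log2 fold change was 0.00.

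Counted in each label class alone, the rise took in different numbers of members. Within LRC the same 7 members rose (3.2% of all genes), and within nLRC 3 did, Skint3, Skint4 and Skint9 (2.75% of all genes); whether the classes differ in this was not tested. Skint1 had 46.6, 76.2 and 69.3 TPM in basal LRC and 101, 98.3 and 118 in spinous LRC libraries, but 38.2, 38.0 and 50.5 in basal nLRC and 37.7, 17.6 and 39.8 in spinous nLRC. On TPM, all 10 members were higher in every spinous LRC than in every basal LRC library (14.9% of genes with a mean TPM of at least 1), and 4 were so in nLRC (16.2%). The spinous nLRC libraries went against their layer's label on several markers. The spinous keratin gene Krt10 had 3142 to 7018 TPM there, 18010 to 29330 in spinous LRC and 3285 to 3833 in basal nLRC. The 12 sebocyte markers, genes of sebaceous gland cells, which make lipid, of which 10 rose from basal to spinous layer, summed to 4170 to 9130 TPM in spinous nLRC, 862 to 968 in spinous LRC and 542 to 999 in basal nLRC. None of the 12 was at 0 in these groups. Basal keratinocyte markers went with the label. They summed to 26770 to 35620 TPM in spinous nLRC, 17630 to 23620 in spinous LRC and 63070 to 84540 in basal nLRC libraries. The part of all these markers in the Skint values was not tested.

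From the spinous to the granular layer, the last living layer of the epidermis, 6 of the 10 members rose, where 2.47% of all genes did and 1.54% fell. These were Skint2, Skint3, Skint4, Skint5, Skint9 and Skint10, and the other 4 did not pass. The members' median log2 fold change was 1.38, against −0.01 over all genes. Skint3 stood at 76.1, 76.1 and 93.3 TPM in granular libraries, all above its spinous values, a rise of 1.51 ± 0.17 (adjusted p = 4.2e-04). Skint9 stood at 261, 283 and 302 TPM, also above every spinous library, with 1.87 ± 0.37 (adjusted p = 0.00770). Skint2, with 15.5, 26.9 and 13.6 TPM, rose by 2.38 ± 0.47 (adjusted p = 0.00826), and Skint5, with 58.5, 31.1 and 50.0 TPM, by 2.34 ± 0.51 (adjusted p = 0.0148). Skint10 rose by 2.01 ± 0.44 with overlap in scaled counts, and Skint4 by 1.01 ± 0.27 with an adjusted p of 0.0453. Skint6 (1.25 ± 0.42), Skint1 (0.74 ± 0.29), Skint11 (0.81 ± 0.48) and Skint7 (0.30 ± 0.25) did not pass. With the replicate number as a block Skint6 passed as well, at 1.25 (adjusted p = 0.0421).

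This count rested on the spinous class it was set against and on single granular libraries. Against spinous nLRC alone 9 members rose (6.67% of all genes), and against spinous LRC alone 1 did, Skint3, at 1.64 (adjusted p = 0.00125, 0.796% of all genes). The count fell to 2 without granular library 1 and to 3 without granular library 2. On TPM, 6 members were higher in every granular library than in every spinous LRC library (10.4% of genes with a mean TPM of at least 1) and Skint7 was lower in every one (10.1%). Skint7 had 31.8, 30.7 and 32.3 TPM in granular and 81.2, 76.5 and 79.5 in spinous LRC libraries. The counts gave the same sign for it, −1.17, and did not pass (adjusted p = 0.0683). Of the genes that define the granular layer, Lor had 13.1 to 250 TPM in these libraries and Flg 19.2 to 166, so their levels varied widely. Of 9 granular keratinocyte markers tested, 2 rose from spinous to granular layer and 0 fell. They summed to 320 to 1333 TPM in granular, 154 to 387 in spinous LRC and 103 to 172 in spinous nLRC libraries. The 7 upper hair follicle markers rose in 6 cases and summed to 16650 to 25380 TPM in granular, 1306 to 4191 in spinous LRC and 4923 to 6235 in spinous nLRC libraries. Langerhans cell markers summed to 172 to 740, 93.7 to 143 and 54.0 to 648 TPM in the same order, and 0 of 7 rose. Cd3e, Trdc and Tcrg-V5 had means of 3.77, 2.43 and 2.72 TPM in granular and 1.37, 0.303 and 1.06 in spinous LRC libraries. Tcrg-C1 went the other way, with 0.467 and 1.15 TPM. Of 7 T cell markers tested 0 rose and 1 fell. The part of all these markers in the Skint values was not tested.

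**Figure D3:**
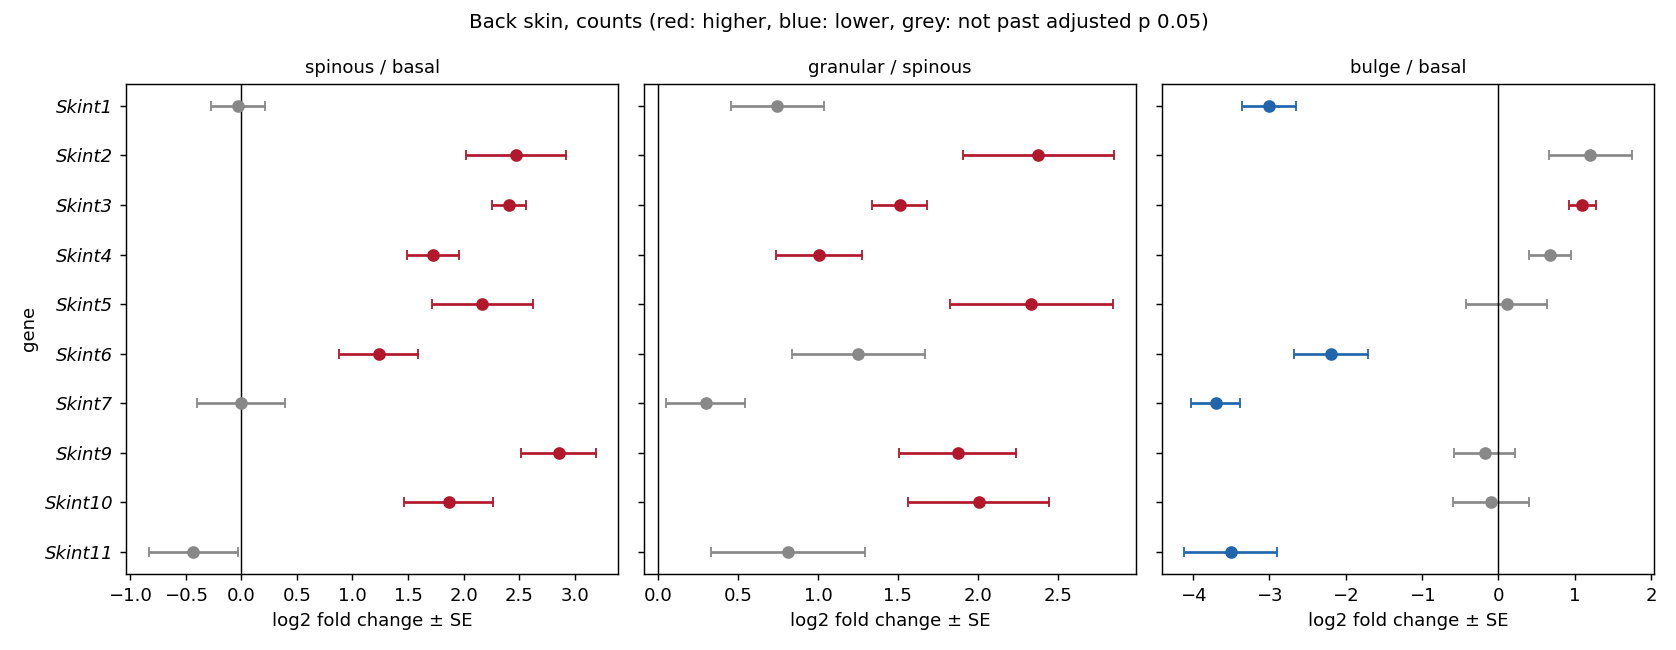
Log2 fold change ± SE of each member on counts in 3 comparisons of back skin (x axis; y axis, members; 18 libraries in the fit); red, higher, blue, lower, grey, not past an adjusted p of 0.05. Skint2, Skint3, Skint4, Skint5, Skint9 and Skint10 are red in both left panels, and Skint1, Skint6, Skint7 and Skint11 are blue against the bulge.

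Set beside each other, the members differed widely in the ratio of granular to basal level. The ratio of mean TPM in granular libraries to the mean of both basal groups was 25.7 for Skint9, 23.7 for Skint2, 19.6 for Skint5, 16.0 for Skint10 and 15.2 for Skint3. It was 6.49 for Skint4 and 6.47 for Skint6. Skint11, at 2.12, Skint1, at 1.9, and Skint7, at 0.91, made up the low end. Skint2 rested on few reads in the basal layer, with 0.11 to 2.71 TPM in basal LRC and 0 to 1 in basal nLRC libraries. Highest group means were in the granular layer for 8 members and in spinous LRC for Skint1 and Skint7. For Skint1 these values, 106 ± 10.8 and 101 ± 18.4 TPM in spinous LRC and granular libraries, differed by less than their spread.

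**Figure D4:**
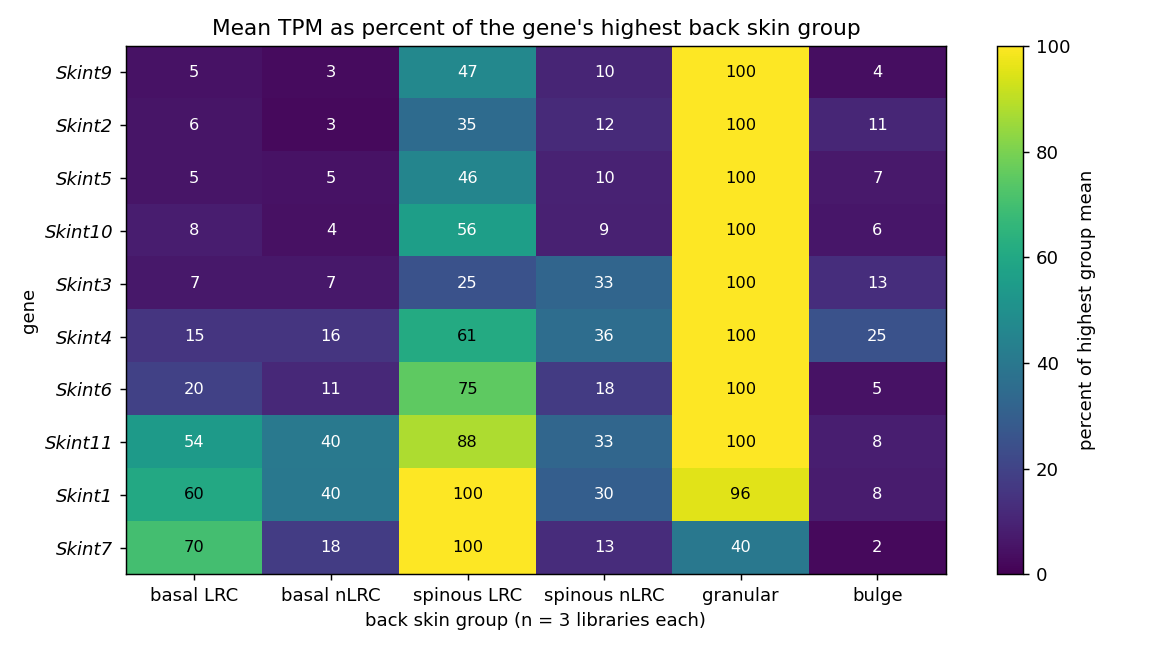
Mean TPM of each member in the 6 back skin groups (x axis, n = 3 libraries each) as a percent of its highest group, by colour and printed number; members (y axis) run from the highest ratio of granular to basal level, Skint9, to the lowest, Skint7. Only Skint1 and Skint7 peak in spinous LRC.

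Between slow-cycling and fast-cycling cells of back skin the ratio of mean TPM was highest for Skint7, and these are the values with which the family was chosen. Skint7 had 56.4, 55.9 and 53.8 TPM in the basal LRC libraries and 15.02, 13.8 and 13.4 in the basal nLRC libraries, 3.93 times as much in mean TPM. In the spinous layer it had 81.2, 76.5 and 79.5 TPM in LRC and 15.3, 6.03 and 8.76 in nLRC libraries, a ratio of 7.88. The classes did not overlap in either layer, and the spread within both LRC groups was small. In the basal layer, Skint1 had the next largest difference in TPM, with 64.0 ± 15.5 against 42.2 ± 7.13, and its libraries overlapped. Skint9 stood at 13.5 ± 1.16 against 8.40 ± 1.79 TPM without overlap. Of the 10 members, 2 were higher in every basal LRC library, Skint7 and Skint9, where 9.08% of genes with a mean TPM of at least 1 were so and 6.84% were lower in every one. By the adjusted p, 0.0121% of the genes tested rose and 0.223% fell, and nothing is read from this for the members. In counts scaled to library size the members without overlap were Skint1, Skint6 and Skint7, higher in LRC, and Skint3, lower. Skint3 and Skint4 had nearly equal mean TPM in the 2 classes, 5.36 ± 0.739 against 5.40 ± 0.489 and 10.9 ± 3.57 against 11.1 ± 3.62 TPM.

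In the spinous layer 9 of the 10 members were higher in every LRC library, where 20.5% of genes with a mean TPM of at least 1 were so, and Skint3 was lower in every one (22.1%). By the adjusted p, 6.88% of all genes rose and 8.63% fell. Ratios of mean TPM ran from 1.71 for Skint4 to 7.88 for Skint7, with 6.23 for Skint10, 4.73 for Skint5, 4.57 for Skint9 and 4.3 for Skint6. Skint3 had 20.2, 20.9 and 21.1 TPM in LRC and 22.1, 26.4 and 31.6 in nLRC libraries, a ratio of 0.777. The sebocyte marker sums and Krt10 levels given above moved with this contrast. So did the sums of melanocyte markers, 9.72 to 11.8 TPM in LRC and 25.0 to 44.9 in nLRC libraries, of upper follicle markers, 1306 to 4191 and 4923 to 6235, and of T cell markers, nearly all of it Thy1, 36.8 to 62.2 and 81.0 to 95.9. The part of these cells was not tested. Among the defining T cell genes, mean TPM in spinous LRC and nLRC was 1.37 and 1.39 for Cd3e and 0.303 and 0.87 for Trdc. It was 1.15 and 0.963 for Tcrg-C1 and 1.06 and 2.90 for Tcrg-V5, all from few reads. In the basal layer the sebocyte marker sums were 484 to 505 TPM in LRC and 542 to 999 in nLRC libraries, and Krt10 had 4214 to 5588 against 3285 to 3833 TPM. The T cell markers, again nearly all Thy1, summed to 159 to 199 TPM in basal LRC and 260 to 285 in basal nLRC libraries. The defining T cell genes were split in direction, all from few reads. Mean TPM in basal LRC and nLRC was 1.497 and 0.4767 for Cd3e and 0.5767 and 0.4367 for Trdc. Tcrg-C1, with 0.1967 and 0.95, and Tcrg-V5, with 0 and 1.663, went the other way. The part of these markers was not tested.

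In tail skin, where LRC and nLRC of the basal layer were tested, Skint1, Skint3 and Skint4 rose in LRC, 3 of the 8 members with enough counts to test, where 3.12% of 14993 genes rose and 1.48% fell. Skint2 and Skint7 were not tested there. Skint4 had 9.42, 11.8 and 10.7 TPM in LRC and 1.69, 2.75 and 3.36 in nLRC libraries, without overlap, a log2 fold change of 1.98 ± 0.30 (adjusted p = 0.00464). Skint1 had 8.13, 15.9 and 7.61 against 0.55, 1.93 and 1.6 TPM, 2.91 ± 0.49 (adjusted p = 0.00893). Skint3 had 2.04, 1.77 and 1.36 against 0.04, 0.27 and 0 TPM and 123, 98 and 101 against 4, 9 and 4 reads, 3.87 ± 0.54 (adjusted p = 0.00318). In all 3 genes every LRC library was above every nLRC library. The 3 calls held with each of the 9 tail libraries left out in turn. On TPM 4 members, these and Skint9, were higher in every LRC library, where 24.8% of genes with a mean TPM of at least 1 were so and 4.38% were lower in every one. Members were counted without that minimum, which Skint3 and Skint9 did not reach over these libraries. In back skin Skint3 and Skint4 had nearly equal basal TPM means in the 2 classes, and whether the skins differ in this was not tested. Skint7 had 0, 8 and 4 reads in tail LRC and 0 in every nLRC library, against 1117 to 1503 in back basal LRC.

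Skint9 (1.89 ± 0.74, adjusted p = 0.177) and Skint10 (1.29 ± 0.73, adjusted p = 0.319) were higher in every tail LRC library in scaled counts without passing, and rested on 57 and 49 reads summed over the 3 LRC libraries. Skint5, Skint6 and Skint11 did not pass and overlapped. Skint8, outside the set, had 58, 56 and 58 reads in LRC and 1, 2 and 11 in nLRC libraries, 3.31 ± 0.72 (adjusted p = 0.0316). Hair follicle genes moved with this contrast: 6 of 8 bulge markers and 6 of 7 upper follicle markers rose in tail LRC. Their sums were 1886 to 3210 and 625 to 1116 TPM in LRC libraries against 366 to 619 and 147 to 182 in nLRC libraries. Among the bulge markers, Krt15 had 1545 to 2993 TPM in LRC and 316 to 593 in nLRC libraries, Lhx2 1.02 to 1.25 and 0.05 to 0.14, Lgr5 0.2 to 0.41 and 0 to 0.03, and Cd34 0.03 to 0.17 and 0 to 0.03. In the tail bulge these genes had 3406 to 6642, 22.1 to 44.2, 5.89 to 9.12 and 48.6 to 72.7 TPM, in the same order. Spinous keratinocyte markers summed to 6054 to 6780 TPM in tail LRC and 3554 to 4718 in tail nLRC libraries. Of the 7 tested, 1 rose and 1 fell. Basal keratinocyte markers summed to 15390 to 17740 and 26060 to 29000 TPM, and of 8 tested 0 rose and 2 fell. The part of follicle cells and of these keratinocyte markers in the Skint values was not tested.

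**Figure D5:**
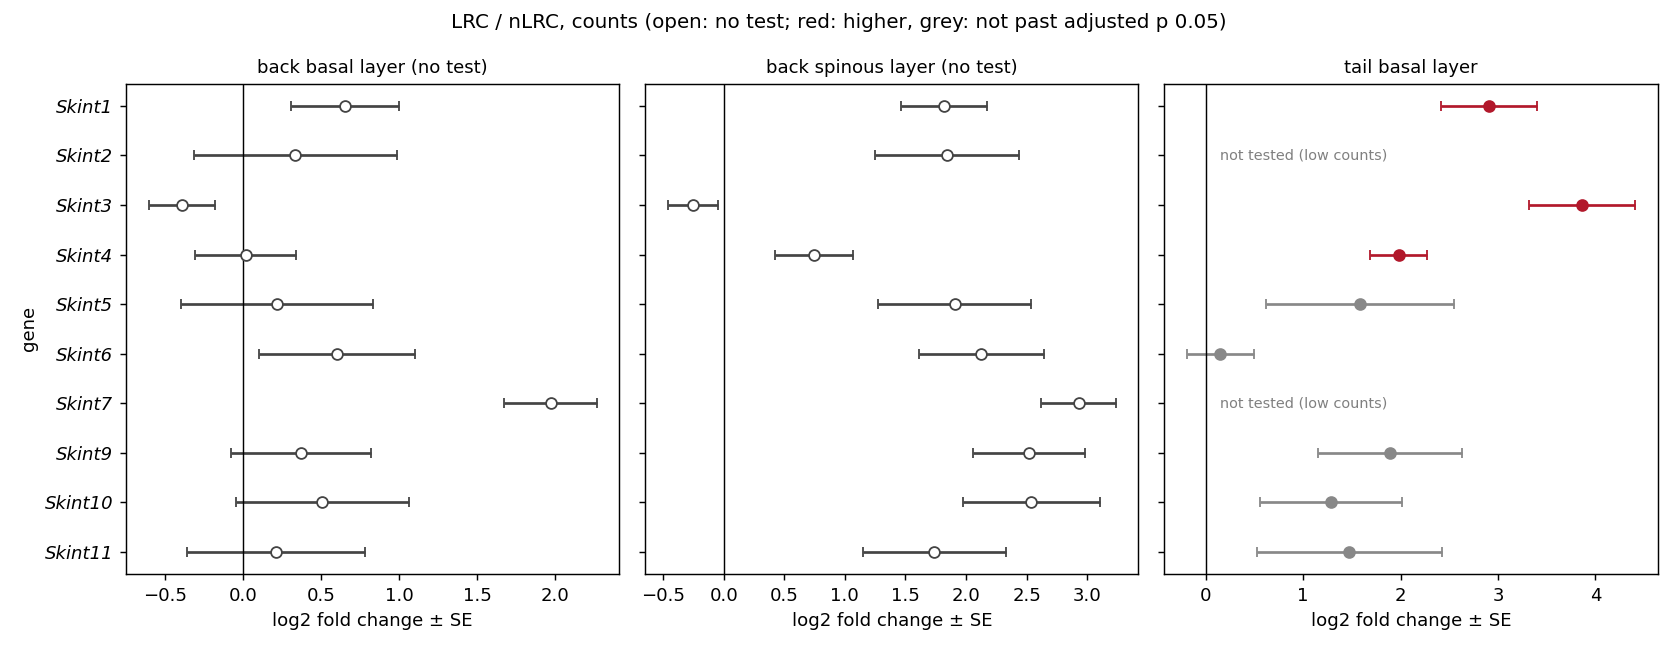
Log2 fold change ± SE of LRC against nLRC for each member (y axis) on counts, in the basal and spinous layers of back skin (open points, no test) and in the tail basal layer (red, higher, grey, not past an adjusted p of 0.05; n = 3 libraries per group). Skint7 is farthest right in both back panels, and Skint1, Skint3 and Skint4 are red in tail.

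Hair follicle bulge cells held less of the members that lead in the basal layer. In back skin 4 of the 10 members fell against the basal layer, where 10.6% of all genes fell, and 1 rose, where 15.7% did. Skint7 had 4.04, 0 and 1.7 TPM in bulge libraries, below every basal library, and fell by 3.70 ± 0.32 on the log2 scale (adjusted p = 4.0e-07). The basal libraries are among those by which the family was chosen, so this p is not independent of the choice. Skint1 had 16.6, 1.23 and 6.86 TPM and fell by 3.005 ± 0.35 (adjusted p = 9.6e-06). Skint11 fell by 3.50 ± 0.61 (adjusted p = 3.9e-04) and Skint6 by 2.19 ± 0.49 (adjusted p = 0.00288). All 4 were separate from the basal libraries in scaled counts. Skint3 rose by 1.10 ± 0.18 (adjusted p = 2.0e-04), with 13.4, 5.51 and 13.4 TPM against 4.67 to 6.14 in basal LRC. Skint4 had 17.4, 4.91 and 31.8 TPM and 0.68 ± 0.27 and did not pass (adjusted p = 0.0791). Skint2, Skint5, Skint9 and Skint10 did not pass and overlapped. The spread was wide, and bulge library 2, which had the high share of ribosomal RNA-like reads, was the lowest of the 3 in 8 members. With each bulge library left out in turn, the 4 falls and the rise of Skint3 still passed. Without library 1, Skint5 (−1.38, adjusted p = 0.0452) and Skint9 (−1.12, adjusted p = 0.0384) fell as well, and without library 2, Skint4 rose (0.97, adjusted p = 0.00471).

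In tail skin 2 of the 8 members tested fell in the bulge, Skint4 and Skint1, where 10.4% of all genes fell and 14.2% rose. Skint4 had 0.04, 0.19 and 0.21 TPM in bulge libraries, below every basal library, and fell by 4.62 ± 0.37 (adjusted p = 1.5e-05). Skint1 had 0.17, 0.33 and 0.31 TPM and fell by 3.24 ± 0.54 (adjusted p = 0.00161). Against basal nLRC alone Skint1 did not pass (−1.79, adjusted p = 0.0537) and Skint4 was the 1 member that did, where 10.1% of all genes fell. The bulge effects of the 2 skins differed for 2 members of 10, where 4.57% of all genes had a lower effect in tail. These were Skint4, with a difference of −5.28 ± 0.57 (adjusted p = 3.8e-05), and Skint3, with −2.55 ± 0.48 (adjusted p = 0.00338). The sort gave bulge-defining genes in both skins: Cd34 had 71.4 to 693 TPM in back and 48.6 to 72.7 in tail bulge libraries. Without back bulge library 1 the count of members whose bulge effects differed was 4.

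Markers of other cells moved with both bulge comparisons. In the back bulge 7 of 7 melanocyte markers tested rose, 5 of 6 fibroblast, 4 of 4 endothelial, 8 of 12 sebocyte and 6 of 7 upper follicle markers, and 4 of 7 spinous keratinocyte markers fell. In the tail bulge 1 of 3 melanocyte, 3 of 4 fibroblast and 4 of 4 endothelial markers rose, while 3 of 12 sebocyte, 4 of 7 upper follicle and 6 of 7 spinous keratinocyte markers fell, and 1, 2 and 1 of these rose. Fibroblast markers summed to 33.1 to 118 TPM in back bulge libraries against 9.66 to 22.7 in basal LRC and 10.7 to 16.5 in basal nLRC, and to 64.1 to 104 in tail bulge libraries against 2.09 to 10.1 and 2.09 to 7.27. Endothelial markers summed to 9.11 to 337 TPM in the back and 6.47 to 43.4 in the tail bulge, and to at most 0.69 in any basal skin library. In the back bulge the sums for melanocyte, sebocyte and upper follicle markers were 12.9 to 468, 158 to 1690 and 4070 to 7735 TPM, against 11.8 to 25.6, 542 to 999 and 638 to 1044 in basal nLRC libraries. Their part in the Skint values was not tested.

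Basal cells of tail skin held less Skint RNA than those of back skin. Of the 10 members, 8 were lower in tail than in back basal cells, but so were 27.2% of all genes, and 31.0% were higher. This comparison crosses the 2 sets of tables, so tissue and processing cannot be told apart. The 8 basal keratinocyte markers summed to 55100 to 74630 TPM in back and 15390 to 17740 in tail LRC libraries, and 5 of the 8 were lower. Of the Langerhans cell markers 4 of 5 tested were lower in tail, with sums of 61.1 to 108 and 41.1 to 216 TPM in back LRC and nLRC libraries against 1.17 to 3.77 and 0.18 to 1.33 in tail. Of the T cell markers 2 of 5 were lower, with sums, nearly all Thy1, of 159 to 199 and 260 to 285 TPM in back against 29.8 to 43.0 and 48.6 to 60.6 in tail. Of the spinous keratinocyte markers 5 of 7 were higher in tail. The part of these cells in the Skint values was not tested. Skint4 and Skint2 did not pass. Skint4 had 10.9 ± 3.57 TPM in back and 10.6 ± 1.21 in tail LRC libraries, but 11.1 ± 3.62 and 2.6 ± 0.845 in nLRC. Skint7 showed the widest gap of the members, with at least 348 reads in each of the 6 back basal libraries and 12 in all 6 tail basal libraries together (adjusted p = 9.8e-09). Its values in these back libraries were used to choose the family, so this p is not independent of the choice. Skint11 (−5.33 ± 0.49), Skint6 (−4.11 ± 0.22), Skint9 (−3.92 ± 0.47) and Skint5 (−3.52 ± 0.54) had the next largest falls. Skint1 (−3.13 ± 0.21), Skint10 (−2.81 ± 0.34) and Skint3 (−2.29 ± 0.30) followed. Skint3 did not pass within LRC alone, at −0.17 (adjusted p = 0.734).

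In basal cells of the oral epithelium almost no Skint RNA was found at this depth, and the tables of tail and oral libraries list equal numbers of genes. Against tail basal cells 6 of 10 members fell in palate, where 13.1% of all genes fell, and 7 fell in tongue, where 15.3% did. Both comparisons share the tail libraries. Keratinocyte, follicle and gland markers moved with them: 7 of 7 spinous keratinocyte, 5 of 7 upper follicle and 7 of 12 sebocyte markers were lower in palate, and 6, 5 and 7 in tongue. Spinous keratinocyte markers summed to 6054 to 6780 and 3554 to 4718 TPM in tail LRC and nLRC libraries, against 261 to 362 and 144 to 297 in palate and 558 to 754 and 574 to 633 in tongue. Their part in the Skint values was not tested. Skint1 had 7 and 4 reads in palate LRC, 17 and 2 in palate nLRC, 2 and 0 in tongue LRC and 1 and 1 in tongue nLRC libraries, all below the 19 to 398 reads of tail. It fell by 3.82 ± 0.33 on the log2 scale in palate (adjusted p = 1.3e-07) and passed in tongue (adjusted p = 8.3e-09). Skint4 had at most 10 reads in any oral library against 76 to 549 in tail, and passed in both tissues (adjusted p = 1.2e-08 and 9.7e-09). Skint3, with at most 11 oral reads, passed in both as well (adjusted p = 4.5e-05 and 2.4e-06). Skint9, Skint10 and Skint11 passed in both from few reads, and Skint5 passed in tongue (adjusted p = 0.0438) but not with the replicate number as a block (adjusted p = 0.0517). With limma on log2(TPM + 1) the count was 3 in each tissue, where Skint1, Skint3 and Skint4 were the members with a tail mean of at least 1 TPM. Skint6 kept 36 to 83 reads in every oral library, −0.11 ± 0.24 in palate and −0.42 ± 0.24 in tongue, neither past the test, yet its TPM was listed at 0 in all 8, so none of them counted toward its exon level.

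Skint7 had 0 reads in all 8 oral libraries. No difference between LRC and nLRC could be shown in either oral tissue: 1 of the 10 members, Skint6, had enough counts to test, and it did not pass in palate (−0.31 ± 0.39) or tongue (−0.37 ± 0.40). In that test edgeR called 0% of 14923 genes in palate, with 1082 genes at an unadjusted p under 0.05, and 0.0067% in tongue (1 gene, higher in LRC), with 696 at an unadjusted p under 0.05. DESeq2 called 12 genes in palate and 88 in tongue, and limma on log2(TPM + 1) called 0 and 1, with no member among them.

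Of 4 genes beside the cluster, Slc5a9, a sodium-coupled sugar transporter gene 16474 bases before Skint8, rose from basal to spinous (1.51 ± 0.39, adjusted p = 0.0206) and from spinous to granular layer (1.64 ± 0.44, adjusted p = 0.0453) in back skin. Trabd2b, 161696 bases beyond Skint11, encodes a metalloprotease that acts on Wnt proteins and fell from basal to spinous layer (−1.51 ± 0.39, adjusted p = 0.0211). It rose in the bulge of back skin (4.66 ± 0.45) and of tail skin (3.39 ± 0.27), as did Spata6 (2.68 ± 0.37 and 1.29 ± 0.22) and Bend5 (7.02 ± 1.24 and 3.86 ± 0.72), both before the cluster. Slc5a9 fell in the tail bulge (−4.29 ± 0.88, adjusted p = 0.00554) and did not pass in the back bulge (−0.91 ± 0.52, adjusted p = 0.21).

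Other genes that act between keratinocytes and epidermal T cells were described from a list of 17 (ligands, cytokines and their receptors), of which 13 could be tested in back skin. From basal to spinous layer 1 rose, where 4.9% of all genes did, and 2 fell, where 4.18% did. Il15, a cytokine that supports these T cells, rose (1.14 ± 0.20, adjusted p = 0.00151), and Ulbp1 (−1.54 ± 0.23, adjusted p = 5.1e-04) and H60c (−0.76 ± 0.19, adjusted p = 0.0187), ligands of the activating receptor NKG2D, fell. In the granular layer Il15 rose again (1.40 ± 0.23, adjusted p = 0.00254), as the 1 of 13 that passed, where 2.47% of all genes rose. In the bulge of back skin 9 of 13 fell, where 10.6% of all genes did, among them Ulbp1 (−1.97 ± 0.31), the chemokine gene Ccl27a (−2.02 ± 0.33), the ligand-activated transcription factor gene Ahr (−2.34 ± 0.42) and the growth factor receptor gene Fgfr2 (−1.25 ± 0.23). In tail LRC 2 of 15 rose, where 3.12% of all genes did, Il7 (2.28 ± 0.27, adjusted p = 0.00128), a T cell growth factor gene, and Ahr (1.58 ± 0.18, adjusted p = 9.0e-04). In the tail bulge 5 of 15 fell and 2 rose, where 10.4% and 14.2% of all genes did, with Il7 (−2.83 ± 0.29) and Ahr (−2.12 ± 0.17) among those that fell, and H60c (1.48 ± 0.17) among those that rose. Of a list of 11 genes, drawn from the butyrophilin family except for Erp27, 1 had enough counts to test in back skin and 1 in tail skin. The gene tested did not pass within either skin, and nothing is read from this for the butyrophilin family.

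The genes whose level was most like the summed Skint level over the 13 group means were Il34 (Pearson r = 0.987), E2f2 (0.987), Sh3yl1 (0.986), Susd2 (0.985) and Vkorc1l1 (0.985), of 11129 genes searched on log2(TPM + 1). Il34, a cytokine gene that maintains Langerhans cells, had mean levels of 211 TPM in spinous LRC, 190 in granular and 62.9 in basal LRC libraries, 6.32 in tail LRC and at most 0.86 in oral groups. The genes most like Skint7 were Pkib (0.989), Ccr4 (0.989), Nr6a1os (0.987), Clca1 (0.986) and Kcnj16 (0.985). Pkib, which encodes an inhibitor of protein kinase A, had 14.2 TPM in basal LRC and 5.94 in basal nLRC libraries, and 26.6 and 6.46 in the spinous classes. These are descriptions over 13 group means, and those of a tissue share its set of tables.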

How the data were processed

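RNA of sorted cells was made into stranded total RNA libraries, per the labels' protocols. The authors deposited 1 table per library with total gene reads (counts), TPM and RPKM per gene, per the file headers. Reads were mapped to mm10, per the submitters' processing notes; the aligner and the counting program, with its strand setting, were not given in the sources used here. The deposited RPKM values were used only for the exon share. The members and all gene lists were chosen with earlier results of these data known.

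Counts were tested with edgeR 4.0.16 (TMM scaling, filterByExpr with a minimum count of 10 and a total of 15, quasi-likelihood F test, Benjamini-Hochberg adjustment over all genes tested, threshold 0.05) in R 4.3.3. Back skin libraries were fitted together, as were tail libraries and oral libraries; comparisons across tissues used genes listed in both table sets. An SE is the log2 fold change divided by the root of F. Contrasts average LRC and nLRC unless stated. The alternatives were DESeq2 1.42.0, its size factors in edgeR, no low-count filter, a replicate block, the compared groups alone, limma 3.58.1 on log2(TPM + 1), and each library left out. Contrasts within a label class were added after seeing the data. Libraries of a group differed beyond sampling noise (lowest chi-square per degree of freedom 23.1), so none was counted as a duplicate. The estimated exon share multiplies RPKM by exon length, scaled per library by the median of single-exon genes with at least 200 reads, and divides by the count. Depth was 8421582 to 20560481 reads per library, and the number of libraries limits the precision. The edgeR step was tested on simulated data.

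Named genes were all members, the other Skint gene listed, up to 3 protein-coding neighbours on each side, at most 4 genes of a list (smallest p) and the 5 genes most like a pattern, leaving out predicted genes. Same-numbered libraries deviated together for the back basal, spinous and granular groups (r = 0.199 to 0.404) and for tail LRC and nLRC (r = 0.32 to 0.589). From the data alone, the numbers may mark pairs there. Between basal and bulge groups r was 0.039 to 0.274 in back skin and −0.0524 to 0.438 in tail skin, so pairing was unclear. Between LRC and nLRC it was 0.301 in palate and 0.0621 in tongue. The main tests fitted group means without pairing, and the replicate block was run as an alternative.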

Additional observations from a re-analysis of the deposited data

Results flagged for a closer look

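For 2 members the change from basal layer to bulge differed between tail and back skin in a test of the difference itself (edgeR, tail minus back). Skint3 had a difference of −2.546 on the log2 scale, as it rose in the back bulge and did not pass in the tail bulge. Skint4 had a difference of −5.278, as it fell in the tail bulge and did not pass in the back bulge. The test crosses the 2 sets of tables, but each effect was taken within its own set. The cause was not tested.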

How the results depend on the processing

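Of 246 recounts of members past the test under another setting, 235 stayed within 1.5 times the count reported and 11 did not. Within nLRC alone, 3 members rose from basal to spinous layer and 4 were lower in tongue than in tail. The granular count was 1 against spinous LRC alone and ran from 2 to 7 with 1 library left out. The tail bulge count was 1 against basal nLRC alone. With limma on log2(TPM + 1), 3 members were lower in palate and 3 in tongue. The count for the difference of bulge effects was 4 with no low-count filter and ran from 2 to 4 with 1 library left out. Of 5 members that shared runs of 50 bases with another Skint gene, 1 shared runs of 100 bases. The cause of these shifts was not tested. Among 46 member values past the test, 1098 of 1179 recomputed values still passed in the same direction, 81 no longer passed and 0 changed sign.

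With the replicate number as a block, the counts were 7, 7 and 5 for spinous, granular and bulge cells of back skin, 3 and 2 for LRC and bulge in tail skin, 0 for palate and tongue LRC, 6 and 6 for palate and tongue against tail, 8 for tail against back and 2 for the difference of bulge effects. Only 2 calls of members changed, Skint6 in granular cells (adjusted p = 0.0421) and Skint5 in tongue (adjusted p = 0.0517).

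All changes of sign were in values that had not passed. From basal to spinous layer, Skint7 was −0.0109 with no low-count filter, −0.0214 with the block, −0.0152 with limma and −0.48 within nLRC. Skint1 was 0.13 with limma and 0.56 within LRC, and Skint11 was 0.20 and 0.34. Against spinous LRC alone, granular values were −0.16 for Skint1, −0.0595 for Skint11 and −1.17 for Skint7. In the back bulge, Skint5 was −0.20 with the block and −0.00162 against basal LRC, Skint10 was 0.00688 with limma and 0.16 against basal nLRC, and Skint9 was 0.00676 against basal nLRC. In the tail bulge against basal nLRC, Skint11 was 0.00578 and Skint3 0.51. Skint6 was 0.0877 in palate within nLRC, and Skint4 was 0.70 in tail against back within LRC. With limma the difference of bulge effects was 0.97 for Skint1 and 0.55 for Skint9. With 1 library left out, ranges that crossed 0 were −0.14 to 0.0969 for Skint7 and −0.0914 to 0.0684 for Skint1 (spinous layer), −1.12 to 0.21 for Skint9, −1.38 to 0.54 for Skint5 and −0.82 to 0.39 for Skint10 (back bulge), −0.18 to 2.06 for Skint11 and −0.22 to 0.29 for Skint6 (tail LRC), and −1.26 to 0.0722 for Skint11 (tail bulge). They were −0.68 to 0.0072 (tongue LRC) and −0.26 to 0.0634 (palate against tail) for Skint6, and −1.52 to 0.0112 for Skint2 (tail against back). For the difference of bulge effects they were −1.49 to 0.45 for Skint1, −1.90 to 0.38 for Skint5 and −1.34 to 0.20 for Skint2.

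In tail and oral libraries several members had too few reads for a test, so a difference there was not detectable at this depth.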
